A study of Mus musculus with 2 samples.

Results

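The 9 genes described here are grouped as neutrophil granule and alarmin genes: the alarmins S100a8 and S100a9, the granule genes Camp, Ngp, Ltf, Lcn2 and Mmp8, the secreted factor Retnlg, and the acute-phase gene Saa3. They were chosen by symbol from the 32285 mouse genes listed in the files, with earlier results of these data known, and all 9 were found once. Their unique molecular identifiers (UMIs, each counting 1 captured RNA molecule) were summed over cell classes and set beside barcodes of 10 to 100 UMIs, which are taken to hold free RNA rather than cells and are called empty barcodes. In the GENCODE annotation of GRCm38, S100a8 (chr3:90668978-90670035) and S100a9 (chr3:90692632-90695721) are neighbours on chromosome 3. Camp (chr9:109847379-109849617), Ngp (chr9:110419747-110423012), Ltf (chr9:111019271-111042767) and Mmp8 (chr9:7558456-7568485) lie on chromosome 9, Lcn2 (chr2:32384633-32388252) on chromosome 2, Saa3 (chr7:46711998-46715700) on chromosome 7 and Retnlg (chr16:48872621-48874496) on chromosome 16.

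The study profiled live, unsorted cells of pancreatic tumors by single-cell RNA sequencing. The tumors grew in the pancreas of male mice from injected KPC cells, a mouse pancreatic cancer line. FLOX mice carry the floxed allele of MCT1, the lactate transporter encoded by Slc16a1. MCT1-KO mice also carry Col1a2-CreERT2, a tamoxifen-inducible Cre driven by a collagen promoter, which is meant to delete MCT1 in pancreatic stellate cells (PSCs) but would act in any cell that uses that promoter. Mice were injected with tamoxifen or corn oil before the KPC cells. The genotype labels do not say which the mice of each library received, so any effect of the injection cannot be told apart from genotype. Each condition is 1 library, so no difference between them has a replicate check: intervals are exact 95% intervals that cover counting error only, no p-value is given, and library and genotype cannot be told apart.

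Cells with 500 or more UMIs, 200 to 5000 genes and at most 8% mitochondrial UMIs were kept. This left 8739 cells with 61149689 UMIs in the FLOX library and 11689 cells with 81494894 UMIs in the library labelled MCT1-KO. Slc16a1 was counted beside the label: PSC-like cells held 57 Slc16a1 UMIs, or 25.6 CPM (UMIs scaled to a common total per class), in the FLOX library and 112, or 35.7 CPM, in the other. With a ratio of 1.39 (1.005 to 1.95), the count was not lower where the deletion was labelled. UMIs were summed over the whole gene, so they cannot show whether its floxed part was deleted. No level in empty barcodes was set beside them, and the second library is called by its label throughout. The kept cells of the libraries shared 59 barcodes.

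Neutrophils mature in the bone marrow and fill their granules in a fixed order. Primary granule proteins such as myeloperoxidase are made first, in dividing precursors. Specific granule proteins such as cathelicidin and lactoferrin follow as division ends, and gelatinase granules and secretory products come last. S100A8 and S100A9 form calprotectin, the most abundant protein of the neutrophil cytosol, which binds metals and acts as an alarmin when released. RNA for early granule proteins is switched off before the cell enters blood, so these genes mark immature cells, while calprotectin RNA persists in mature ones.

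The neutrophil-like class was 1 cluster of 751 FLOX cells (8.59% of kept cells, 8.01 to 9.20) and 703 cells labelled MCT1-KO (6.01%, 5.59 to 6.46). The 9 members and their companion granule genes were kept out of the clustering, so the class does not rest on them. All 8 of its marker genes were in at least 10% of its cells in both libraries, among them the receptors Csf3r, Cxcr2 and Il1r2. Its cells held little RNA, with a median of 1462 and 1076 UMIs. The 8 macrophage markers summed to 1709 and 1061 CPM there, below their 12857 and 10050 CPM in empty barcodes, and the 6 monocyte markers to 455 and 420 CPM, below 1267 and 901. The 8 acinar markers summed to 152 CPM in FLOX neutrophil-like cells and 4985 CPM in the other, below their 12326 CPM in the empty barcodes of that library. The 5 mast cell markers summed to 243 CPM in the FLOX library and were all at 0 in the other. The part of the macrophage, monocyte and mast cell markers in the results below was not tested.

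The alarmins carried most of the members' RNA in neutrophil-like cells. S100a8 had 32380 UMIs, or 26627 CPM (26337 to 26918), in the FLOX library and 30610 UMIs, or 36642 CPM (36232 to 37055), in the library labelled MCT1-KO. S100a9, its binding partner, had 25248 CPM (24967 to 25532) and 28768 CPM (28405 to 29134). S100a8 was 44.7 and 78.1 times its level in empty barcodes. S100a8 was seen in 90.9% (88.7 to 92.9) and 96.7% (95.1 to 97.9) of neutrophil-like cells. In T/NK-like cells, which should lack it and were deeper (median 3002 and 2438.5 UMIs), it was seen in 14.8% and 7.26%. S100a8 and S100a9 together took a median of 2.70% of a neutrophil-like cell's UMIs in the FLOX library, with a highest value of 39.5%. In the other library the median was 4.58% and the highest value 36.4%. The cell ranges overlapped widely, since both ran upward from 0%.

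The ratio of the library labelled MCT1-KO to the FLOX library was 1.38 (1.35 to 1.40) for S100a8 and 1.14 (1.12 to 1.16) for S100a9. For both summed it was 1.26 (1.25 to 1.28), beside a median ratio of 1.06 over all 4615 genes with 50 or more UMIs in these cells. A correction for free RNA scaled to collagen genes gave 1.23 (1.22 to 1.25). One scaled to the acinar markers gave 0.802 (0.793 to 0.811), but it multiplied the ratios of 8 members alike, by 0.632 to 0.645, since those markers stood at 62.5% and 40.4% of their level in empty barcodes. The macrophage markers stood at 13.3% and 10.6% and the collagen genes at 15.3% and 13.3%. The alarmin pair was not matched in balance either: S100a8 had 1.05 UMIs (1.04 to 1.07) for each S100a9 UMI in FLOX neutrophil-like cells and 1.27 (1.25 to 1.30) in the others. Empty barcodes had nearly the same balance as the neutrophil-like cells of their own library, 1.04 (1.02 to 1.06) and 1.22 (1.19 to 1.26).

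**Figure D1:**
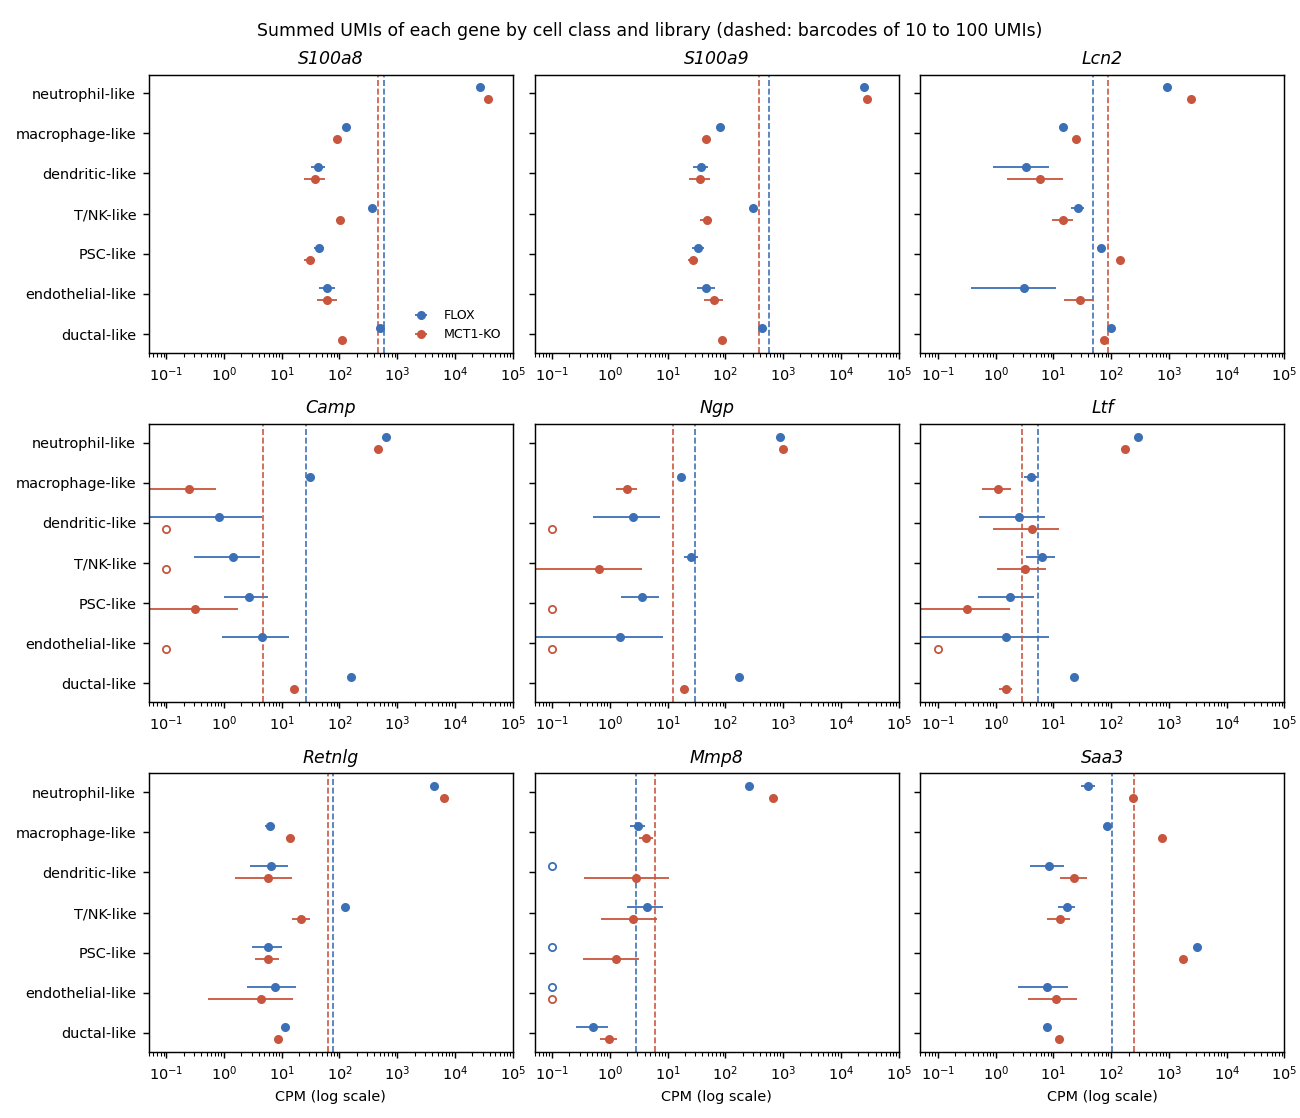
CPM of each member (x axis, log scale) in 7 cell classes (y axis) of the FLOX (blue) and MCT1-KO (red) libraries, with exact 95% counting intervals; dashed lines are the empty barcodes of each library and open circles at 0.1 stand for 0 UMIs. Neutrophil-like cells are highest for 8 members, and PSC-like cells for Saa3.

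Camp, Ngp and Ltf encode early specific granule proteins: the antimicrobial peptide cathelicidin, neutrophilic granule protein, and the iron-binding lactoferrin. Their RNA lay in very few cells. Camp had 774 UMIs in FLOX neutrophil-like cells, but only 14 of the 751 cells held one, and the 10 richest cells held 99.5% of its UMIs. In the library labelled MCT1-KO it had 395 UMIs in 13 of 703 cells, with 99.2% in the 10 richest. Ngp had 1072 UMIs in 25 cells and 831 UMIs in 53 cells. Ltf was spread more widely, with 349 UMIs in 86 cells and 144 UMIs in 52 cells. Between the libraries the ratio was 0.743 (0.656 to 0.840) for Camp, 1.13 (1.03 to 1.24) for Ngp and 0.601 (0.491 to 0.731) for Ltf. For the 3 genes summed it was 0.909 (0.849 to 0.972), and it rested on a handful of cells. Without cells that held 10 or more UMIs of these genes it was 1.11 (0.883 to 1.39), and with such cells of other clusters added it was 0.404 (0.387 to 0.421), 2 choices made after the values were seen. A UMI of any of the 3 genes was in 14.6% (12.2 to 17.4) and 14.5% (12.0 to 17.3) of neutrophil-like cells, or 11.8% and 15.02% with each cell thinned to 1000 UMIs, which leaves out 54 and 267 cells.

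The promoters of 4 members are shown, each of which holds the motif marked below. RNA of Ngp and Ltf was found together in many of the granule-rich cells described next. That of Mmp8 and Retnlg was found in part of them, not apart from Ngp and Ltf. A FLOX cell held 65 UMIs of Ngp, 15 of Ltf, 68 of Retnlg and 5 of Mmp8. Camp, found beside Ngp in the same cells, holds no match and is not shown, so shared cells alone do not give this choice. Sequences are from RefSeq (GRCm38.p6) and hold the bases before each RefSeq start that lie outside the longest GENCODE model, all on the plus strand and of chromosomes 9 and 16. Capitals mark TTNNGCAA on either strand, a motif of the kind bound by C/EBP factors, which act in granulocyte development. The motif was chosen with these promoters in view.
Ngp, chr9:110419558-110419746: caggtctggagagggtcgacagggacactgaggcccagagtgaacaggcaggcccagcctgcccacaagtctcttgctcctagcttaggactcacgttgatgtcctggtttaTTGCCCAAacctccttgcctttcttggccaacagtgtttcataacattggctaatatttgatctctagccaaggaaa
Ltf, chr9:111019042-111019270: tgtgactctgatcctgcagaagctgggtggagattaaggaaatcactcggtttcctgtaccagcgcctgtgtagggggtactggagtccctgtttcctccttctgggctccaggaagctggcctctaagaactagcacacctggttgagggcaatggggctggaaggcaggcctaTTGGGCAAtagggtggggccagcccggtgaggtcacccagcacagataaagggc
Mmp8, chr9:7558179-7558428: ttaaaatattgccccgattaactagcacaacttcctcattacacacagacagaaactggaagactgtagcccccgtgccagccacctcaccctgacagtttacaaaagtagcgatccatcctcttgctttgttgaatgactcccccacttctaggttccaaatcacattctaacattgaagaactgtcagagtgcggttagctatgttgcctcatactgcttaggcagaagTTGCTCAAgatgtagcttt
Retnlg, chr16:48872358-48872607: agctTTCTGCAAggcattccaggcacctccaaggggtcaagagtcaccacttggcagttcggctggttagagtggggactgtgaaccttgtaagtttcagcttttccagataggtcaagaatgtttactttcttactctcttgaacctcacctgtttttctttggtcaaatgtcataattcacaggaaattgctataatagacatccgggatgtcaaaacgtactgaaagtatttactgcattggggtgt
In the full window of 250 bases before the start, 7 of the 9 members held a match, against 9.56% of 32851 promoters of the same length. Since the motif was chosen with these promoters in view, the comparison is not a test. The whole window of Lcn2, counted among the 7, lies inside its longest GENCODE model. S100a8 and Camp held none. The match lay 75 bases before the start in Ltf, 19 in Mmp8 and 246 in Retnlg, and at 138 and 11 bases in Ngp, the second of which is in the stretch not printed. A match describes the letters only and does not show that a factor binds there.

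Across all kept cells, 20 of 8739 FLOX cells (0.229%, 0.140 to 0.353) and 18 of 11689 cells labelled MCT1-KO (0.154%, 0.0913 to 0.243) held 10 or more Camp, Ngp and Ltf UMIs. This limit was set after the values were seen, and the cells are described without a test. The highest cells below it held 8 and 7 such UMIs, and the lowest above it held 10 in both libraries. These 38 cells held 93.7% of the 10789 UMIs of the 3 genes in FLOX kept cells and 91.0% of the 3003 in the others. Only 10 and 11 of them were in the neutrophil-like cluster. Of the other FLOX cells, 8 were in a cluster of cycling cells led by Pimreg, Hmmr and Cdc20, which was named ductal-like from its markers, and 1 such cell was there in the other library. That name is of the whole cluster and does not give the kind of these cells. In the 8 FLOX cells the keratins Krt8 and Krt18 together had 0 to 5 UMIs, save 1 cell with 21. The granulocyte precursor genes Cebpe and Fcnb together had 5 to 39 UMIs in them. The ductal-like class had 156 CPM of Camp and 175 CPM of Ngp in the FLOX library, and held 71.2% and 71.1% of their UMIs in FLOX kept cells. Of 8 members with 50 UMIs in ductal-like cells, 5 were 2-fold lower in the library labelled MCT1-KO and none was 2-fold higher, where 3.26% of all genes were lower and 1.73% higher. These calls rested largely on the 8 FLOX granule-rich cells, which held 9607 of the 10577 FLOX ductal-like S100a8 UMIs and 3657 of the 3705 of Ngp. Without such cells, 8 FLOX and 3 in the other library, a choice made after the values were seen, 2 of the 7 members left with 50 UMIs were 2-fold lower (Camp, with 39 and 14 UMIs, and Ngp, with 48 and 25), and the S100a8 ratio was 0.766 (0.705 to 0.833) in place of 0.225. In T/NK-like cells 4 of 6 members were 2-fold lower and none higher, against 2.49% and 1.44% of genes. There 1 FLOX cell held 468 of 747 S100a8, 229 of 263 Retnlg and all 53 Ngp UMIs. Without it 1 of 4 members was 2-fold lower, S100a9 at 0.425 (0.322 to 0.554), and Retnlg had 34 UMIs in each library.

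These cells differed in which granule genes they held. A FLOX cell of the cycling cluster held 715 UMIs of the primary granule genes Mpo, Elane, Prtn3 and Ctsg, 27 of Camp, 1 of Ngp and none of Ltf, Retnlg or Mmp8. Another held 551 primary granule UMIs beside 94 of Camp, 98 of Ngp and 22 of the division genes Mki67 and Top2a. None of the 18 cells labelled MCT1-KO with 10 or more Camp, Ngp and Ltf UMIs held 100 primary granule UMIs. Cells of other classes below that limit were not searched for primary granule RNA. In the cell richest in specific granule RNA, also FLOX, Camp had 700 UMIs, Ngp 995 and Ltf 67, with 27 division UMIs, 13 of Retnlg and none of Mmp8. The richest cell labelled MCT1-KO held 464 of Camp, 544 of Ngp, 28 of Ltf, 19 division UMIs and 18 of Retnlg. These cells gave 9.36% and 8.03% of their UMIs to the 3 genes and 21.1% and 31.2% to S100a8 and S100a9.

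Other cells held little Camp beside much Retnlg, a resistin-like protein of mature neutrophils, and some Mmp8, the neutrophil collagenase. A FLOX neutrophil-like cell with 16 Camp and 108 Ngp UMIs held 351 of Retnlg and 30 of Mmp8. A neutrophil-like cell labelled MCT1-KO with 4 Camp and 54 Ngp UMIs held 183 of Retnlg and 8 of Mmp8. Among cells with 100 or more UMIs of the 3 genes, 7 of 14 FLOX cells and 1 of 7 cells labelled MCT1-KO held under 5 Retnlg UMIs. Division UMIs of 5 or more were in 8 of the 20 FLOX cells and 1 of the 18 others. As to other cells in the same droplet or well, 2 and 5 of these cells held 5 or more Krt8 and Krt18 UMIs, which are epithelial keratins.

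**Figure D2:**
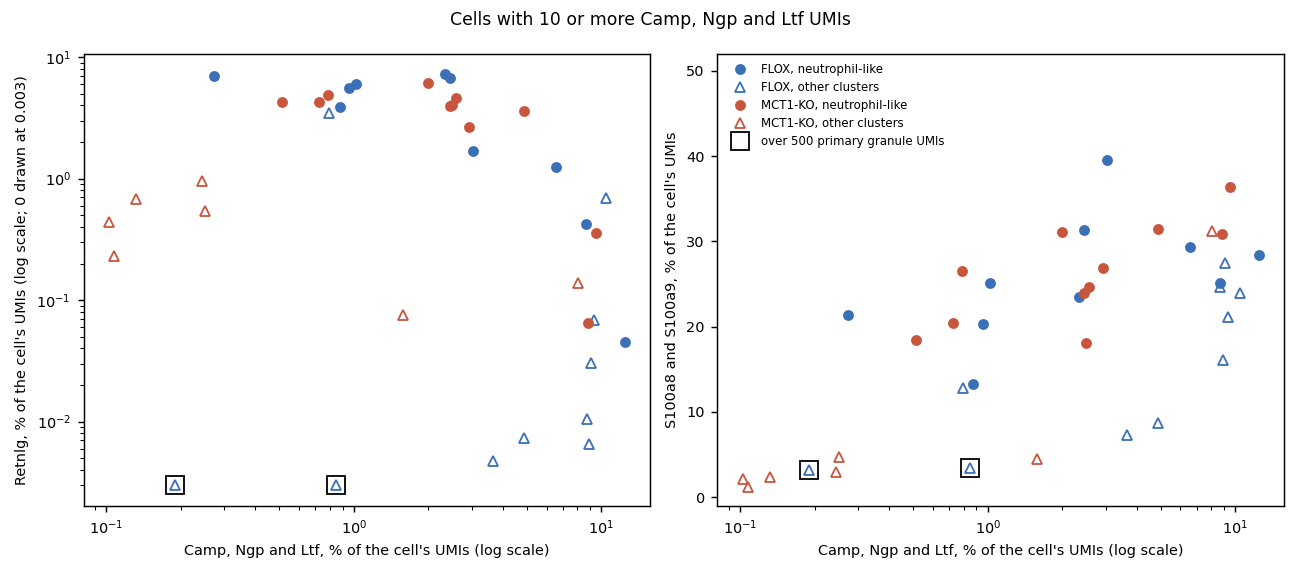
Each point is 1 of the 38 cells with 10 or more Camp, Ngp and Ltf UMIs, with the share of its UMIs from these genes (x axis, log scale) against Retnlg (left, log scale, 0 drawn at 0.003%) and against S100a8 and S100a9 (right). Cells with over 8% of their UMIs from the 3 genes sit below 1% Retnlg, and both cells with over 500 primary granule UMIs hold no Retnlg.

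The primary granule genes were near absent from the neutrophil-like class itself: Mpo and Ctsg had 0 UMIs in both libraries, which allows up to 3, and Elane had 1 and 0. None of the 6 primary granule genes listed reached 50 UMIs there. Of the 6 precursor genes listed, Cebpe, the factor of specific granule genes, had 30 and 16 UMIs, and Mki67 had 27 in both.

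Lcn2, Mmp8 and Retnlg had ratios above 1 in neutrophil-like cells, except for Retnlg, at 0.934, under the common multiplication by the acinar correction described above. Lcn2 encodes lipocalin 2, which withholds iron carriers from bacteria. It had 1138 UMIs, or 936 CPM (882 to 992), in the FLOX library and 1988 UMIs, or 2380 CPM (2276 to 2487), in the other. Mmp8 had 309 UMIs (254 CPM, 227 to 284) and 550 UMIs (658 CPM, 605 to 716). Retnlg had 5356 UMIs (4404 CPM, 4287 to 4524) and 5413 UMIs (6480 CPM, 6308 to 6655). The ratios were 2.54 (2.36 to 2.74) for Lcn2, 2.59 (2.25 to 2.99) for Mmp8 and 1.47 (1.42 to 1.53) for Retnlg. Unlike Camp, these genes were spread over many cells. Lcn2 was seen in 25.6% (22.5 to 28.8) of FLOX and 71.3% (67.8 to 74.6) of the other neutrophil-like cells, or 21.2% and 71.3% at 1000 UMIs per cell. T/NK-like cells had it in 1.50% and 3.11%. The 10 richest cells held 55.2% of Lcn2 UMIs in FLOX neutrophil-like cells and 16.4% in the others. Mmp8 was seen in 16.4% and 36.7% of cells and Retnlg in 33.2% and 47.1%.

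Counting all members, 3 of 9 were at least 2-fold higher in neutrophil-like cells of the library labelled MCT1-KO (Lcn2, Mmp8 and Saa3) and none was 2-fold lower. Over all genes with 50 or more UMIs there, 3.71% were 2-fold higher and 3.99% were 2-fold lower. The median ratio of the members was 1.38. Lcn2 was at 1.38 with all 2000 genes in the clustering and at 1.40 with cells called by 3 of 8 markers. Under the acinar correction, which multiplied 8 members alike, Lcn2 and Mmp8 were both inside the 2-fold limit, Mmp8 at 1.64. For Saa3, its 49 and 199 UMIs gave 0.388 (0.287 to 0.515) and 0.969 (0.837 to 1.12) times the level in empty barcodes, and with cells called by 3 of 8 markers the values were 1.67 and 4.18 times.

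The companion genes moved unevenly. Of 8 other specific granule genes with 50 UMIs, 1 was 2-fold higher and none lower, with a median ratio of 1.50. That gene was Chil3, a chitinase-like protein of specific granules and macrophages, at 578 and 7591 CPM, a ratio of 13.1 (12.1 to 14.2). It was in 27.3% and 95.5% of the cells, and empty barcodes had 16.4 and 111 CPM. Wfdc21 had a ratio of 1.98 (1.79 to 2.19) and haptoglobin, Hp, 1.86 (1.69 to 2.04), just inside the limit. Of 5 gelatinase and secretory granule genes none passed it, and Mmp9, the gelatinase, had 576 and 323 CPM, a ratio of 0.561 (0.486 to 0.647). Of 8 genes of mature and tumor neutrophils, 5 were 2-fold lower and none higher, with a median ratio of 0.442. The lower ones were the chemokines Ccl3 (4052 and 1125 CPM), Cxcl2 (31753 and 13777 CPM) and Cxcl3, the prostaglandin synthase Ptgs2 (1544 and 594 CPM), and the lectin Siglecf, with 58 and 9 UMIs. Il1b, the interleukin-1 beta gene, had a ratio of 0.790 (0.771 to 0.808). The 4 other S100 genes, S100a4, S100a6, S100a10 and S100a11, had a median ratio of 1.17 with none past the limit.

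**Figure D3:**
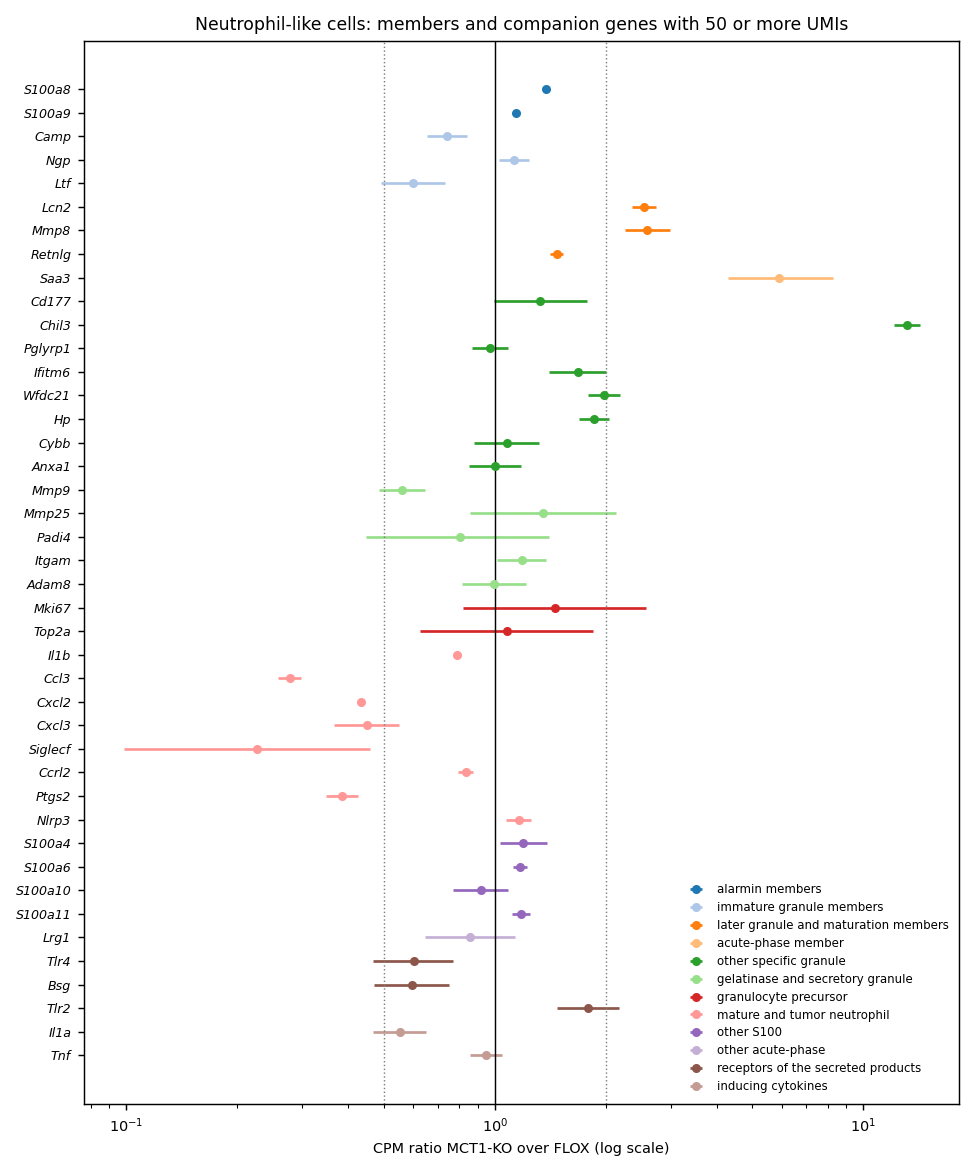
Ratio of CPM in the MCT1-KO library over the FLOX library in neutrophil-like cells (x axis, log scale; dotted lines at 0.5 and 2) for the members and companion genes with 50 or more UMIs, colored by list, with exact 95% counting intervals. Lcn2, Mmp8, Saa3 and Chil3 lie above 2, and Ccl3, Cxcl2, Cxcl3, Siglecf and Ptgs2 lie below 0.5.

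In the FLOX library, 7 of the 8 other members were at a higher level in neutrophil-like cells with a Lcn2 UMI than in those without one. In the library labelled MCT1-KO all 8 were. The share of all genes that were higher in such cells was not computed, so these counts are not read as a result about the members. Saa3 was at 31.6 CPM (16.3 to 55.2) with Lcn2 and 44.2 (31.1 to 60.96) without it in the FLOX library, and at 281 and 119 CPM in the other. In the FLOX library, 192 cells with Lcn2 had 50653 CPM of S100a8, 11114 of Retnlg and 1824 of Ccl3, while 559 cells without it had 15730.5, 1361 and 5062. In the library labelled MCT1-KO, 501 cells with Lcn2 had 42582, 8076 and 866 CPM, and 202 cells without it had 19913, 1983 and 1855. Thus S100a8 and Retnlg were higher and Ccl3 lower in cells with Lcn2 in both libraries. Il1b and Cxcl2, listed with Ccl3 as genes of mature and tumor neutrophils, differed less. With and without Lcn2, Il1b was at 15165 and 17421 CPM in the FLOX library and at 12967 and 13851 in the other. Cxcl2 was at 29368 and 32834 CPM, then at 13532 and 14468. Granule-rich cells were kept in all these values. The cells with Lcn2 were also somewhat deeper, with median UMIs of 1645.5 against 1426 and of 1093 against 1007.5.

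Not all members belonged mainly to neutrophil-like cells. Of the UMIs in kept cells, that class held 87.4% and 86.0% for Retnlg, 80.1% and 79.9% for Mmp8, 68.7% and 79.4% for S100a8, and 71.3% and 80.5% for S100a9. For Lcn2 it held 27.4% and 27.8%, and for Saa3 0.569% and 1.27%. Across the 14 points given by 7 classes in 2 libraries, the gene most like S100a8 in log2 CPM was S100a9, with a Pearson r of 0.996. Camp was most like Ngp (r = 0.975), Retnlg most like Cstdc4 (0.992) and Mmp8 most like Stfa2l1 (0.995), both genes of the stefin and cystatin family. Lcn2 was most like Map1lc3b (0.963) and Saa3 most like Ldhb, with a lower r of 0.892. These values share libraries and depth between points and describe likeness only.

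Lcn2 was also high in a few cells of another kind. A small cluster of 36 FLOX cells and 63 cells labelled MCT1-KO, led by Ttr, Pigr, Gkn1 and Tff1 and rich in Epcam and keratins, had 2370 CPM (2189 to 2562) and 4693 CPM (4464 to 4931). The second was 1.98 times the first (1.80 to 2.18). These levels rested on few cells: the 10 richest held 93.2% and 72.6% of the UMIs, and without them the levels were 242 and 2096 CPM. Neutrophil-like cells had 936 and 2380 CPM with their own 10 richest cells kept, which held 55.2% and 16.4% of their Lcn2 UMIs. The small cluster is 1 of 5 ductal-like clusters. Of its cells 11 and 25 held 10 or more Lcn2 UMIs. In the cells labelled MCT1-KO these Lcn2-rich cells had 51.5 CPM of S100a8 and S100a9. The whole cluster held 143 Lcn2 UMIs for each S100a8 UMI in that library, against 0.191 in the empty barcodes. In the FLOX cells the alarmins were at 3371 CPM, and 4 of the 11 had high doublet scores. PSC-like cells had Lcn2 at 67.3 CPM (56.9 to 79.0) and 145 CPM (132 to 159), which is 1.39 and 1.62 times the empty barcodes.

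In ductal-like cells as a whole, Lcn2 UMIs per S100a8 UMI were 2.41 (2.25 to 2.58) and 3.45 (3.26 to 3.65) times those in empty barcodes. Without the cluster led by Ttr they were 1.71 (1.59 to 1.84) and 1.58 (1.479 to 1.70), and without the granule-rich cells they were 12.0 (11.1 to 13.05) and 10.2 (9.68 to 10.8), both choices made after the values were seen. Lcn2 itself was at 97.8 and 74.0 CPM in ductal-like cells, against 48.4 and 89.5 CPM in empty barcodes. Without the granule-rich cells it was at 45.0 and 69.0 CPM, below empty barcodes in both libraries. The larger values per S100a8 UMI therefore do not show Lcn2 above free RNA in those cells. Neutrophil-like cells had 0.0351 and 0.0649 Lcn2 UMIs per S100a8 UMI, below the 0.0812 and 0.191 of empty barcodes.

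**Figure D4:**
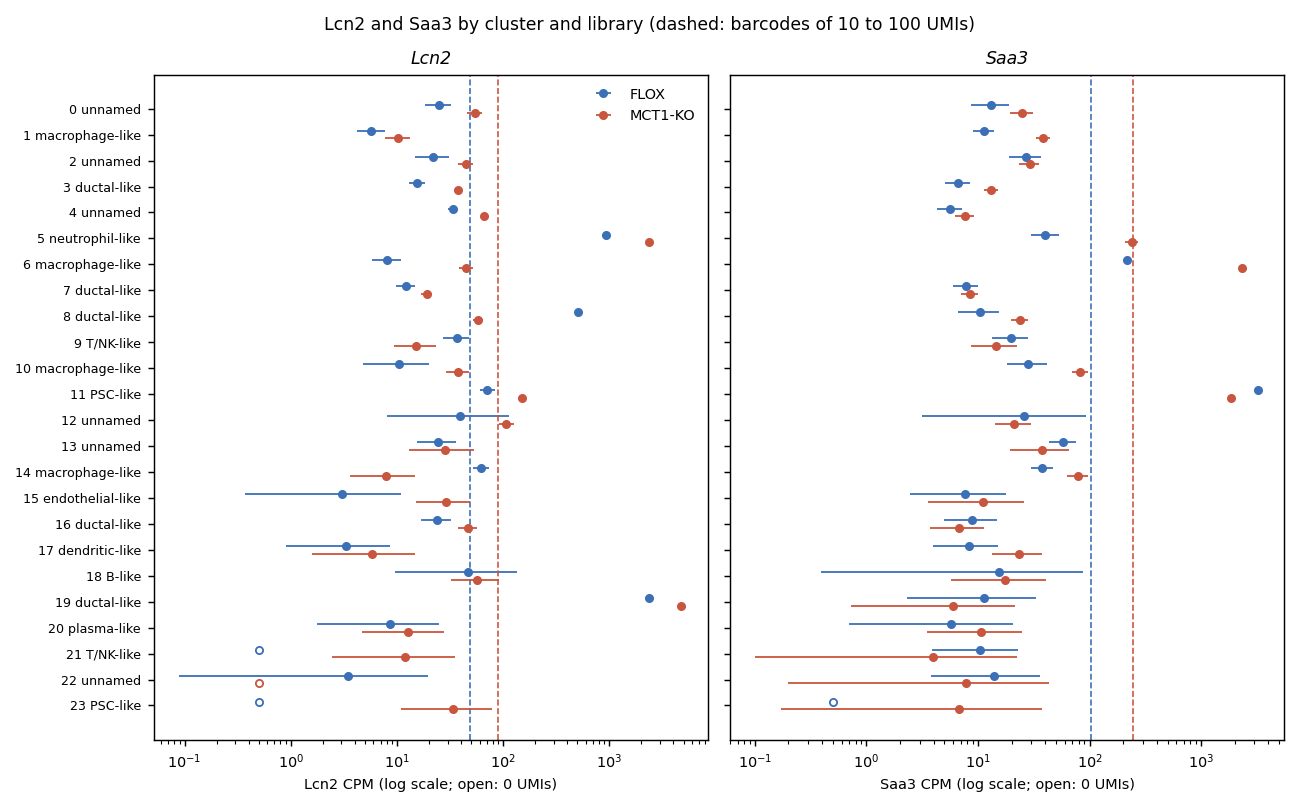
CPM of Lcn2 and Saa3 (x axes, log scale) in each of the 24 clusters (y axis, with the class each was given) of the FLOX (blue) and MCT1-KO (red) libraries, with exact 95% counting intervals; dashed lines are empty barcodes. Lcn2 is highest in clusters 19 and 5, and Saa3 in clusters 11 and 6.

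Saa3, an acute-phase serum amyloid A made at sites of inflammation, was highest in PSC-like cells among the 7 classes. Macrophage-like cells as a class lay above the empty barcodes only in the library labelled MCT1-KO. PSC-like cells had 6860 UMIs, or 3077 CPM (3005 to 3151), in the FLOX library and 5574 UMIs, or 1774 CPM (1728 to 1822), in the library labelled MCT1-KO. These are 29.7 and 7.22 times the empty barcodes, but 2.92 and 0.828 times with no upper limit on genes and the cells clustered again. The ratio was 0.577 (0.557 to 0.598), not past the 2-fold limit. Of the 4 members with 50 UMIs there, 1 was 2-fold higher, Lcn2 at 2.16 (1.79 to 2.61), where 3.65% of all genes were. None was 2-fold lower, as 3.51% of genes were. Of these UMIs 6860 and 5573 lay in a cluster led by C7, Clec3b and Smoc2, in which 62 of 217 and 89 of 394 cells held 10 or more Saa3 UMIs. The related genes Saa1 and Saa2 were far lower there, at 13.5 and 27.4 CPM and at 0 and 11.8 CPM. With no upper limit on genes, 609 of the 611 cells of the cluster led by C7 stayed in 1 cluster, again named PSC-like. The lower values under that setting are of the whole class, named anew with barcodes of over 5000 genes let in. Those barcodes had Saa3 at 40.5 and 18.7 CPM, and what share of the class they made up is not given. The lower values therefore do not show less Saa3 in the cells of the cluster led by C7.

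Macrophage-like cells held 1291 Saa3 UMIs, or 83.2 CPM (78.7 to 87.8), in the FLOX library and 8999 UMIs, or 755 CPM (740 to 771), in the other. Their ratio was 9.08 (8.57 to 9.64), and they stood at 0.802 (0.751 to 0.855) and 3.07 (2.97 to 3.17) times the empty barcodes. The second value was 0.225 at resolution 1.2 and 0.186 with no integration, where most of the cluster described next was left unnamed. Of the 9 members, 2 were 2-fold higher (Saa3 and Retnlg, the latter with 97 and 163 UMIs) and 3 were 2-fold lower (Camp, Ngp and Ltf, with 422 of the 471 FLOX Camp UMIs in 1 cell), where 2.83% of genes were 2-fold higher and 2.97% lower. Without 1 granule-rich cell in each library, of which that labelled MCT1-KO held 55 of the 163 Retnlg UMIs, Retnlg was at 1.47 (1.10 to 1.95), and Lcn2, at 3.74 (2.97 to 4.74), passed the limit instead. With all cells, both genes were below the empty barcodes, Retnlg at 0.0799 and 0.214 times and Lcn2 at 0.301 and 0.279 times their level, so neither value is read as expression by macrophage-like cells. Ltf, left with 31 and 13 UMIs, was at 0.546 and no longer counted among the lower genes. One cluster led by Arg1, the arginase of alternatively activated macrophages, held 1102 and 8560 of these UMIs, at 219 CPM (206 to 232) and 2306 CPM (2257 to 2355). There 16 of 743 cells (2.15%) and 94 of 698 cells (13.5%) held 10 or more Saa3 UMIs. The 10 richest cells held 79.3% and 39.0% of the UMIs, and without them the levels were 46.2 and 1429 CPM.

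Adgre1 and the complement genes C1qa, C1qb and C1qc summed to 11086 and 10640 CPM in the Saa3-rich cells, those of 10 or more Saa3 UMIs, against 13372 and 14871 CPM in the other cells of the cluster. The collagen genes Col1a1, Col1a2 and Col3a1, which mark PSC-like cells, summed to 28.3 and 54.3 CPM in them, against 13336 and 11685 CPM in Saa3-rich cells of the PSC-like cluster. Arg1 was at 4587 and 3241 CPM in the Saa3-rich cells and at 1343 and 915 CPM in the rest. Of these cells 3 and 2 had high doublet scores. PSC-like cells held 79.7% of Saa3 UMIs in FLOX kept cells and 35.6% in the other library, and macrophage-like cells held 14.99% and 57.5%. Empty barcodes had 104 and 246 CPM, a ratio of 2.37 (2.27 to 2.47).

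Receptors and inducers were taken from lists. Tlr4, a receptor for S100A8 and S100A9, was highest in neutrophil-like cells, at 181 and 109 CPM, where its ratio was 0.602 (0.466 to 0.772). Tlr2, a receptor for serum amyloid A, was at 157 and 281 CPM there and at 190 and 237 CPM in macrophage-like cells. Ager, the RAGE receptor, was near 0 in all 7 classes, at no more than 1.92 CPM, and Fpr2 was at 0 UMIs in all of them. Of inducers, Il6 was highest in PSC-like cells, at 407 and 319 CPM, and Csf3, the granulocyte growth factor, had most of its UMIs in ductal-like cells, 155 and 503, at 7.32 and 12.8 CPM. Its highest level was 50.7 CPM, from 23 UMIs in endothelial-like cells of the library labelled MCT1-KO, with 0 UMIs in those of the FLOX library. Among these classes, Il17a was at 21.6 CPM in T/NK-like cells of the FLOX library and at 0 in those of the other. Apart from 0.0472 CPM in FLOX ductal-like cells, it was not seen in the rest of the 7 classes.

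Of all deposited UMIs, empty barcodes held 24.1% and 21.8% for S100a8 and 13.8% and 9.86% for Camp. In empty barcodes S100a8 was at 596 and 469 CPM, Camp at 26.5 and 4.78 CPM, Ngp at 30.3 and 12.5 CPM and Lcn2 at 48.4 and 89.5 CPM. The ratio in empty barcodes was 0.180 (0.148 to 0.218) for Camp, 0.412 (0.362 to 0.469) for Ngp and 0.511 (0.382 to 0.678) for Ltf. Over all kept cells it was 0.169 (0.158 to 0.181), 0.247 (0.233 to 0.261) and 0.196 (0.170 to 0.226). S100a8 lay below the empty barcodes in each other class with 50 cells in both libraries, as in macrophage-like cells, at 0.215 and 0.193 times their level. The S100a8 ratio in empty barcodes was 0.787 (0.769 to 0.805).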

How the data were processed

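The deposited files hold raw UMI counts per gene and barcode, 1 library per condition. Per the labels and the study's methods, reads were trimmed by the authors using fastp, and SeekOneTools gave the counts; the labels name a SeekOne MM 3' kit, while the methods name other kits. The processing notes list human GRCh38 and Seurat 4.0.0, but the files list mouse Ensembl genes, so the build is not known and coordinates are those of GRCm38.

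Barcodes with 500 or more UMIs, 200 to 5000 genes and at most 8% mitochondrial UMIs were normalized, integrated and clustered in Seurat 5.3.0 (R 4.3.3; 2000 genes, of which 1973 were left after taking out the members and granule genes; 20 principal components; resolution 0.8). This gave 24 clusters, 6 of them unnamed. Clusters were named by fixed markers with thresholds set after the clusters were seen. Doublet scores were computed but not used to remove cells, save as an alternative.

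UMIs were summed per class and library and divided by the class total (CPM). Garwood intervals for CPM, Clopper-Pearson intervals for shares and conditional exact intervals for ratios (scipy 1.17.1) were computed at 95%, and with 1 library per condition no test across replicates was made. Genes with 50 or more UMIs over both libraries were compared, with 2-fold as the limit. Named genes are the 9 members, the lists of related genes and, for each member, the genes most like it by Pearson r of log2(CPM + 10) among genes with at least 200 UMIs. The members and lists were chosen with earlier results of these data known. The ratio step was tested on simulated data.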

Additional observations from a re-analysis of the deposited data

Results flagged for a closer look

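For 6 members the ratio of the library labelled MCT1-KO to the FLOX library lay on opposite sides of 1 in a pair of classes. The counting intervals of both classes lay clear of 1, and 1 pair is given per member, chosen among several classes. The share of all genes with such a pair was not computed. The count of 6 is therefore not read as a result about the members. The difference between classes was not tested, and each class is 1 library per condition. S100a8 had 1.38 in neutrophil-like and 0.225 in ductal-like cells. S100a9 had 1.14 in neutrophil-like and 0.160 in T/NK-like cells. In ductal-like cells S100a8 was at 0.838 and 0.240 times its level in empty barcodes (FLOX, then MCT1-KO). In T/NK-like cells S100a9 was at 0.515 and 0.123 times. Empty barcodes themselves had a ratio of 0.787 (0.769 to 0.805) for S100a8 and 0.667 (0.651 to 0.684) for S100a9. These 2 values are therefore not read as a change in expression by those classes, and the part of free RNA in them was not tested. Lcn2 had 2.54 in neutrophil-like and 0.757 in ductal-like cells. Ngp had 1.13 in neutrophil-like and 0.111 in ductal-like cells, but the former lay below 1 under 4 of 14 alternatives (0.465 to 3.90), and the 10 richest cells of each library held 97.2% and 89.2% of its neutrophil-like UMIs. Retnlg had 2.19 in macrophage-like and 0.172 in T/NK-like cells. Saa3 had 9.08 in macrophage-like and 0.577 in PSC-like cells. The ductal-like and T/NK-like values, and that of Retnlg in macrophage-like cells, rested on a few cells. Without cells of 10 or more Camp, Ngp and Ltf UMIs, a choice made after the values were seen, the ductal-like ratio was 0.766 for S100a8, 0.280 for Ngp and 1.53 for Lcn2, the last on the same side of 1 as in neutrophil-like cells. Without 1 such FLOX cell the T/NK-like ratio was 0.425 for S100a9 and 1.33 (0.7997 to 2.20) for Retnlg, and without 1 in each library the macrophage-like ratio of Retnlg was 1.47.

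Most members lay below the level of empty barcodes in barcodes of over 100 UMIs outside the kept cells, with 4 values in the library labelled MCT1-KO whose interval lay above it. Lcn2 was 1.15 times that level (1.03 to 1.27) in barcodes of over 100 and under 500 UMIs, where S100a8 was at 0.786, S100a9 at 0.682, Saa3 at 0.626 and Retnlg at 0.501. In barcodes of 500 or more UMIs with over 8% mitochondrial UMIs, S100a8 was at 1.10 times (1.01 to 1.197), Lcn2 at 1.45 (1.22 to 1.72) and Retnlg at 1.48275 (1.204 to 1.81), while Saa3 was at 0.300 (0.238 to 0.373). In such barcodes of the FLOX library the 9 members were at 0.222 to 0.518 times the level of empty barcodes.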

How the results depend on the processing

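No paired analysis was possible because each condition is 1 library. Over the alternatives run, the ratio in neutrophil-like cells stayed above 1 for Lcn2 (1.38 to 4.45), Mmp8 (1.64 to 2.82) and Saa3 (5.56 to 8.23) and below 1 for Ltf (0.329 to 0.726). It crossed 1 under 1 of 14 for Camp (0.280 to 1.22), S100a8 (0.875 to 1.50) and Retnlg (0.934 to 1.72), 2 for S100a9 (0.725 to 1.24) and 4 for Ngp (0.465 to 3.90). In the values below, cell share is the neutrophil-like percent of kept cells (FLOX, then MCT1-KO), alarmin and granule ratio are those of S100a8 with S100a9 and of Camp with Ngp and Ltf, and Lcn2 ratio is Lcn2 per S100a8 UMI in ductal-like cells against empty barcodes.

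With at least 200 UMIs the cell shares were 5.66% and 5.16%, the alarmin ratio 1.18 and the granule ratio 0.835. With at least 1000 UMIs they were 9.50% and 4.75%, 1.37 and 1.16, and 18.1% of MCT1-KO neutrophil-like cells had a granule UMI. With no upper limit on genes they were 6.96% and 5.43%, 1.23 and 0.638, and the FLOX Lcn2 ratio was 3.02. Saa3 in MCT1-KO PSC-like cells was then 0.828 times empty barcodes, the cause of which was not tested. Of the 611 cells of the cluster led by C7, 609 stayed in 1 cluster named PSC-like. Without the highest doublet scores the alarmin ratio was 1.28 and the Lcn2 ratios 3.27 and 4.82. The Lcn2 ratios were 2.73 and 3.70 at resolution 0.4, and 2.70 and 3.93 with no integration, where the alarmin ratio was 1.28. Saa3 in MCT1-KO macrophage-like cells was 0.225 times empty barcodes at resolution 1.2 and 0.186 with no integration, where 965 and 942 of the 1441 cells of the cluster led by Arg1 fell in a cluster left unnamed. Clustering on all 2000 genes gave an alarmin ratio of 1.08, a granule ratio of 0.432 and Lcn2 ratios of 6.38 and 10.6. Calling cells by 3 of 8 markers gave cell shares of 10.8% and 6.71%, ratios of 1.13 and 0.374, Lcn2 ratios of 11.2 and 19.8, and Saa3 in FLOX neutrophil-like cells at 1.67 times empty barcodes; the cause was not tested. The alarmin ratio was 1.29 with mitochondrial genes and members out of the total, 1.23 with free RNA subtracted by collagen genes and 0.802 by acinar genes, which multiplied 8 members alike (by 0.632 to 0.645) and gave a granule ratio of 0.583, Lcn2 at 1.63 and Mmp8 at 1.64. The share of cells with a granule UMI was 7.73% and 8.16% at 500 UMIs per cell, and 11.8% for FLOX at 1000. The Lcn2 ratio was 3.78 for MCT1-KO with empty barcodes of 10 to 50 UMIs, and 2.68 and 3.21 with those of 1 to 9. Of alternatives chosen after seeing the data, leaving out cells with 10 or more granule UMIs gave 1.30, 1.11 and Lcn2 ratios of 12.0 and 10.2, and turned the Retnlg ratio of T/NK-like cells from 0.172 to 1.33 by leaving out 1 FLOX cell, adding those of other clusters gave 1.07 and 0.404, and leaving out the cluster led by Ttr gave Lcn2 ratios of 1.71 and 1.58.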

Other observations

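The receptor list held 9 genes, of which 3 had 50 or more UMIs in neutrophil-like cells and none passed the 2-fold limit. Bsg, which encodes basigin, had 213 and 127 CPM there, below its 681 and 454 CPM in empty barcodes. Of the 6 inducing cytokines listed, Il1a had 440 and 243 CPM and Tnf 861 and 815 CPM in neutrophil-like cells, both above empty barcodes. Of the 6 other acute-phase genes, only Lrg1 had 50 UMIs there, with a ratio of 0.857 (0.645 to 1.13), and Saa1, Saa2 and Saa4 were at 0 UMIs in both libraries, which allows up to 3 UMIs in each.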
